A study of Mus musculus with 6 samples.

Results

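Mitochondrial ribosomal protein genes were taken as the rows of the deposited mouse gene table whose symbol begins with Mrpl or Mrps followed by a digit. This rule finds 78 of the 21959 genes of the table, 49 of them named for the large subunit (Mrpl) and 29 for the small subunit (Mrps). Poly-A RNA was sequenced in bulk from the paraventricular thalamus, a midline thalamic nucleus, of wild-type mice. The CCI group (3 libraries, replicates 1 to 3) had chronic constriction injury, a neuropathic pain model made by tying loose ligatures around a peripheral nerve, and the control group (3 libraries, replicates 4 to 6) was also wild type and had no treatment. The labels give tissue only as brain, and neither the age of the mice nor the time after injury. Each group had 30 mice per the design text, which leaves unsaid how many went into a library; the p-values here therefore reflect variation among 6 libraries, some of which may be technical.

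The mitochondrial ribosome translates the few mRNAs that the mitochondrial genome encodes, all of them for core subunits of the respiratory chain and ATP synthase. Its rRNAs come from the mitochondrial genome, while all of its proteins are encoded in the nucleus, made in the cytosol and imported. The small subunit binds the mRNA and reads codons, and the large subunit joins amino acids and passes the new chain to the inner membrane. Compared with bacterial ribosomes it has lost rRNA and gained proteins that have no bacterial counterpart. Neurons depend on oxidative phosphorylation for much of their ATP.

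Promoters of this gene family are known to carry short sites for nuclear respiratory factor 1 (NRF1), for GABPA (the DNA-binding chain of nuclear respiratory factor 2) and for YY1, all regulators of nuclear genes for mitochondria. RefSeq promoter windows on GRCm38.p6, from 250 bases before to 50 after the start, were at hand for 69 of the 78 genes, in 75 windows. Shown first are those of the members with the largest falls in the large subunit (Mrpl49) and the small subunit (Mrps27), of a strongly lower member with 3 NRF1 matches (Mrpl45), and of the member that rose (Mrpl52). They lie at chr19:6057706-6058005 (minus strand), chr13:99344536-99344835 (plus strand), chr11:97315466-97315765 (plus strand) and chr14:54426659-54426958 (plus strand). Each is written 5′ to 3′ along the gene, and capitals mark matches on either strand to GCGCA followed after any 1 base by GCGC (the NRF1 motif), to CCGGAAG (the GABPA motif) or to AAGATGGC (the YY1 motif).
Mrpl49: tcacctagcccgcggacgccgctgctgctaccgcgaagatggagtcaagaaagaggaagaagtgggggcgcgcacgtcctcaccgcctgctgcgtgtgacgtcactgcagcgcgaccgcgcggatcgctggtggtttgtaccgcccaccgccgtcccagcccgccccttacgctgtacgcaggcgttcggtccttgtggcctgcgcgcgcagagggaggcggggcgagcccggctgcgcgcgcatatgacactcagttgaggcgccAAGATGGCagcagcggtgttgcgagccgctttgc
Mrps27: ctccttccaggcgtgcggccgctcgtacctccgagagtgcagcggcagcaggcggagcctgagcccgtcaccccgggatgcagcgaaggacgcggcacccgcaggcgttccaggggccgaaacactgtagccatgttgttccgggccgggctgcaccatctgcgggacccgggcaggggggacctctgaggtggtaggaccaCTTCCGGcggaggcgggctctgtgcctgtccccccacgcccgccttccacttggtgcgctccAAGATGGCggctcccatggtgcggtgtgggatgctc
Mrpl45: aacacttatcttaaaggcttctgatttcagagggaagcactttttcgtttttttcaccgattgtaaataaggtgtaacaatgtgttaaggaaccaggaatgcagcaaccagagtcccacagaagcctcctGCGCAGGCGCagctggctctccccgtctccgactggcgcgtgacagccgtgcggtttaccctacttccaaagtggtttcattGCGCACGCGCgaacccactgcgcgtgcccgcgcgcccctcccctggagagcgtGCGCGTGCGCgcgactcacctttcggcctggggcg
Mrpl52: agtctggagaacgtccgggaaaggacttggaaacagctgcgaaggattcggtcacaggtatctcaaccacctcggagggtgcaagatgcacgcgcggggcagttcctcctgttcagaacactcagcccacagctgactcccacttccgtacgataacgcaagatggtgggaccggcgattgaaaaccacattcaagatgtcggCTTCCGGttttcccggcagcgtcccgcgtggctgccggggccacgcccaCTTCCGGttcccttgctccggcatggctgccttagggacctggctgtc

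Mrpl49 carries 1 YY1 match close to its start, Mrps27 has 1 GABPA and 1 YY1 match, Mrpl45 has 3 NRF1 matches and Mrpl52 has 2 GABPA matches. The NRF1 letters were found in 13 of the 75 member windows (17.3%), against 8.91% of the 14462 windows of all tested genes and 4.60% of all 32851 windows in the table. The GABPA letters were in 34.7% of member windows, against 15.3% of windows of tested genes and 8.86% of all windows. The YY1 letters were in 16% of member windows, against 3.87% and 2.75%. At least 1 of the 3 was present in 57.3% of member windows, against 25.2% and 14.7%, and the share was 58.3% for the large and 55.6% for the small subunit. Other motifs, searched on both strands, were not more frequent in member windows than in windows of tested genes. The SP1 letters GGGCGG were in 52% of member windows against 60.2%. The cyclic AMP response element TGACGTCA was in 2.67% against 2.81%, and the E-box CACGTG in 9.33% against 9.40%. The TATA box letters TATAAA were in 6.67% against 7.43%. TCAAGGTCA (ERRA) was in 0 member windows and in 0.297% of windows of tested genes. These matches describe the letters of the windows, and overlaps between matches of different motifs were not counted. Matches were present in lower members and in Mrpl52 alike, and also in members that did not pass, such as Mrps26 and Mrpl43. Some lower members, such as Mrpl50, Mrpl28 and Mrps30, had a match to none of the 3 motifs marked above.

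Total counts were 7989139 to 10529886 in CCI libraries and 12337448 to 15438268 in control libraries. Levels are given as CPM (counts scaled to the library total after TMM adjustment) or, where genes are compared with each other, as FPKM (the deposited value, scaled for gene length and for the total count). TMM factors ranged between 1.21 and 1.25 for CCI libraries and were below 1 for each control library, so that CPM is lowered in CCI and raised in control relative to plain totals. Control replicate 5 stood apart: its member levels were 1.37 times the mean of control replicates 4 and 6 at the median, against 0.997 for all tested genes, and it was the highest of the 6 libraries for 61 of 77 tested members. Where leaving out this library changed the call of a member or pathway gene described here, or moved its called log2 fold change by over 1.5 times, the value without it is given as well. The marker genes of midline thalamus summed to 1589 ± 410 CPM in CCI and 5493 ± 1490 CPM in control (SD, n = 3 each) and all 5 passed as lower, though they were present in every library (at least 1116 CPM in sum). All 4 cortical and hippocampal neuron markers passed as higher, with sums of 120 ± 24.0 CPM in CCI and 46.5 ± 4.12 CPM in control. Prox1, at a mean of 90.3 CPM in CCI and 43.5 CPM in control, made up most of both sums. Neurod6 had 4.21, 3.47 and 57.6 CPM in CCI and 2.50, 2.48 and 0.75 CPM in control. Fezf2 (3.17 and 0.35 CPM) and Tbr1 (4.44 and 0.75 CPM) were weakly expressed. The 3 pan-neuronal markers summed to 2206 ± 130 CPM in CCI and 6421 ± 1354 CPM in control, with 1 of 3 passing as lower. That was Snap25, at a mean of 1472 CPM in CCI and 5553 CPM in control. Syt1 (625 and 746 CPM) and Rbfox3 (109 and 121 CPM) did not pass. The 4 oligodendrocyte markers summed to 17734 ± 2661 CPM in CCI and 8778 ± 3651 CPM in control, and 2 passed as higher. The 4 astrocyte markers summed to 1868 ± 143 CPM in CCI and 5939 ± 786 CPM in control, with 2 passing as higher and 1 as lower. The lower one was Aldoc, at a mean of 1117 CPM in CCI and 5333 CPM in control, which made up most of both sums. Gfap (274 and 119 CPM) and Aqp4 (180 and 98.4 CPM) were higher, and Slc1a3 (298 and 388 CPM) did not pass. The 3 habenula markers summed to 242 ± 131 CPM in CCI and 870 ± 557 CPM in control, with 2 passing as lower. Of 2 red blood cell markers 1 passed as higher (sums 352 ± 7.36 CPM in CCI and 273 ± 139 CPM in control). With edgeR 0 of 3 microglia and 0 of 3 choroid plexus markers passed in either direction, and 0 of each had an unadjusted p under 0.05. DESeq2 and limma-voom also called 0 of each, while limma on log2(FPKM + 1) called 1 microglia marker. The part of these marker differences in the member results was not tested, and in bulk tissue fewer cells of a type cannot be told apart from less RNA per cell.

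With TMM scaling most mitochondrial ribosomal protein genes were lower in CCI than in control. Of the 77 members tested with edgeR's quasi-likelihood test and Benjamini-Hochberg adjustment over all 14259 tested genes, 50 were lower (64.9%), 1 was higher and 26 did not pass an adjusted p of 0.05. Among all tested genes 25.3% were lower, 27.0% higher and 52.3% changed in either direction. The median log2 fold change of CCI over control was -0.80 for the members and 0.06 for all tested genes, and 71 members lay below 0. The count of lower members was 12 (15.6%, against 15.2% of all genes tested) with an offset for the trends with length, GC content and mean expression, and 22 (28.6%) with limma on log2(FPKM + 1). The fall exceeded 2-fold in 31 of the 50 members, and the share of all lower genes that fell as far was not counted. In 57 members all 3 CCI libraries lay below all 3 control libraries and in 1 they lay above, where 29.4% of all tested genes were below and 33.6% above (63.0% either way).

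**Figure D1:**
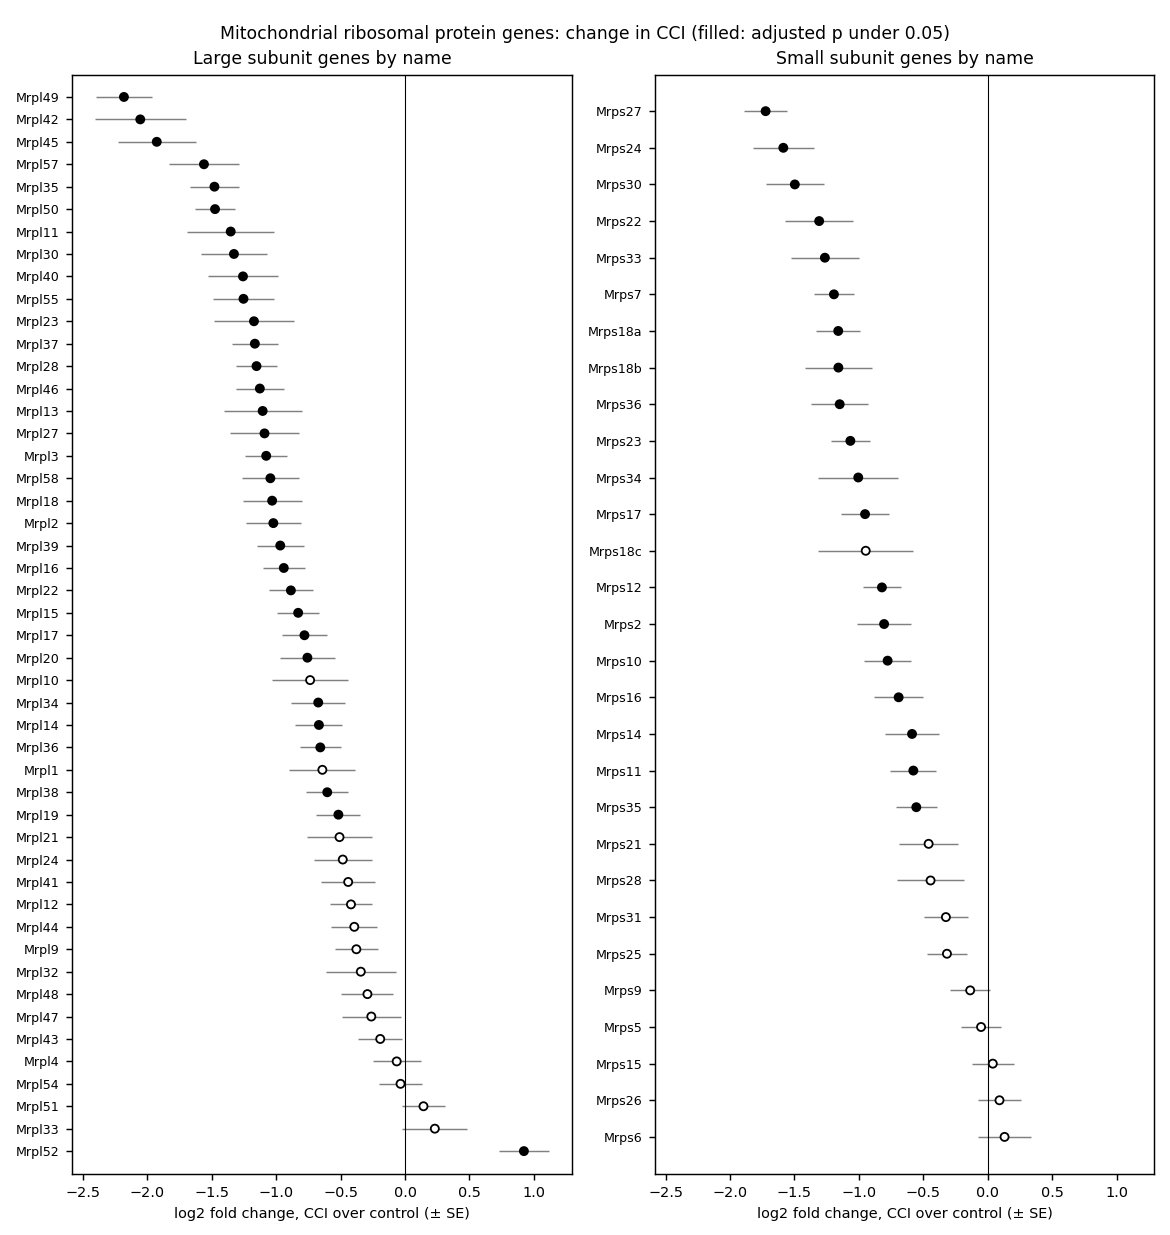
Log2 fold change of CCI over control (x axis) with its standard error (bars) for each tested gene (rows), large subunit genes on the left and small subunit genes on the right. Filled points passed an adjusted p of 0.05, and 71 of the 77 points lie left of 0, with Mrpl52 alone filled on the right.

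The shares of lower genes were alike in both subunits. Of 48 tested large subunit genes 31 were lower (64.6%), 1 was higher and 16 did not pass, with a median of -0.81 and a range from -2.18 to 0.92. Of 29 small subunit genes 19 were lower (65.5%), 0 were higher and 10 did not pass, with a median of -0.80 and a range from -1.72 to 0.13. With the offset that includes mean expression 6 large and 6 small subunit genes were lower (5 and 3 higher), and with log2(FPKM + 1) 12 and 10 (4 and 4 higher). At an unadjusted p of 0.05 edgeR also called 0 small subunit genes higher, the DESeq2 Wald test and limma-voom called 0, and limma on log2(FPKM + 1) called 4. Names do not always give the place: the products of Mrps18a and Mrps30 sit in the large subunit, and that of Mrps36 belongs to the oxoglutarate dehydrogenase complex of the citric acid cycle. Grouped by place, 33 of 50 large subunit genes were lower at a median of -0.86 and 16 of 26 small subunit genes at a median of -0.73.

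Summed over the large subunit, the CCI libraries had 2915, 3044 and 2777 CPM, and the control libraries 4715, 8004 and 5271 CPM. The small subunit summed to 1525, 1557 and 1515 CPM in CCI and to 2350, 3280 and 2579 CPM in control. In every CCI library both sums lay below those of every control library, and the CCI libraries lay close together while control replicate 5 was far above the other controls. The CCI mean was 0.486 of the control mean for the large subunit (2912 ± 133 and 5996 ± 1760 CPM) and 0.560 for the small subunit (1533 ± 22.0 and 2736 ± 485 CPM; SD, n = 3 each). Against control replicates 4 and 6 alone these ratios were 0.583 and 0.622. The fall was smaller on scales without the TMM factor. As shares of total counts, the CCI means were 0.752 (large) and 0.858 (small) of the control means. As summed FPKM they were 0.786 and 0.836. Per length, the large subunit genes summed to 2.26, 2.31 and 2.06 times the FPKM of the small subunit genes in CCI, against 2.24, 2.49 and 2.30 times in control. These ratios overlapped between the groups, with means of 2.21 ± 0.132 in CCI and 2.34 ± 0.132 in control. The mean log2 CPM of large minus small subunit genes also overlapped, at 0.42, 0.45 and 0.33 in CCI against 0.38, 0.54 and 0.39 in control.

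**Figure D2:**
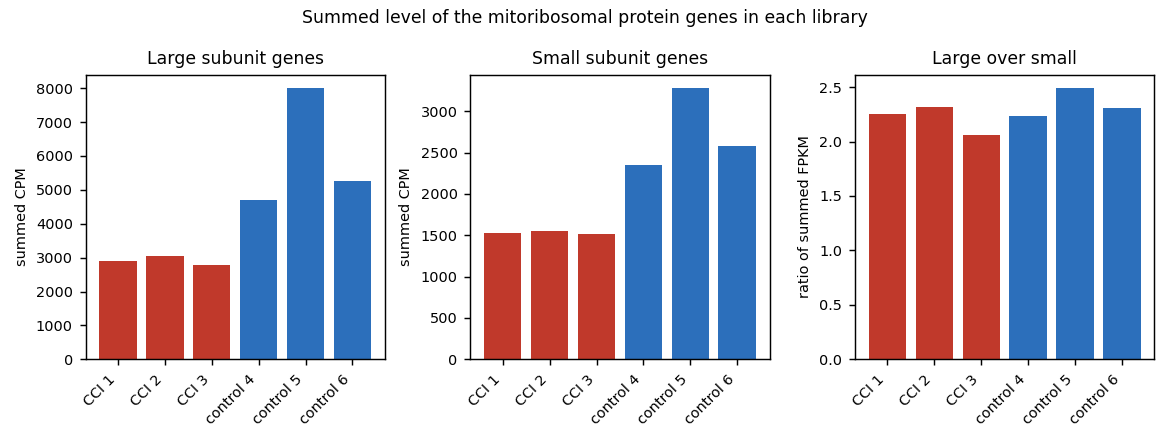
Summed CPM of the large subunit genes (left) and the small subunit genes (middle), and the ratio of summed FPKM of large to small subunit genes (right), with a bar for each library. Red bars are CCI replicates 1 to 3 and blue bars control replicates 4 to 6. Both sums are lower in all 3 CCI libraries, while the ratios of 2.06 to 2.31 in CCI and 2.24 to 2.49 in control overlap.

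Mrpl49 (ENSMUSG00000007338, chr19:6103652-6107815, minus strand, GRCm39), a large subunit protein without a bacterial counterpart, had the largest fall. It had 50.9, 55.9 and 46.8 CPM in CCI libraries, against 180, 299 and 218 CPM in control libraries. The groups were far apart, and the log2 fold change was -2.18 ± 0.22 (SE; edgeR adjusted p = 0.000234), which is 4.54-fold lower in CCI. Its row overlaps Syvn1 on the opposite strand, and since no strand setting is stated, reads of the shared stretch cannot be assigned between them. Mrpl42, another such protein, came next and was named here after its values were seen. It had 169, 176 and 169 CPM in CCI and 459, 1164 and 514 CPM in control (log2 fold change -2.05 ± 0.35, edgeR adjusted p = 0.00183). The 3 CCI libraries were nearly equal, and control replicate 5 held more than the other controls together. Without it the log2 fold change was -1.53.

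Of the 5 catalytic core genes 4 were lower, with a median log2 fold change of -1.02. Mrpl3, whose bacterial counterpart lines the peptidyl transferase centre, had 30.5, 34.3 and 34.3 CPM in CCI and 64.7, 82.0 and 62.6 CPM in control (log2 fold change -1.08 ± 0.16, edgeR adjusted p = 0.00105). Mrpl27, whose bacterial counterpart reaches into that centre, had 122, 125 and 113 CPM in CCI and 181, 374 and 212 CPM in control (-1.09 ± 0.27). Mrpl2 and Mrpl16 were lower by a log2 fold change of -1.02 ± 0.21 and -0.94 ± 0.16. Mrpl4 did not pass: its CCI libraries had 56.7, 61.3 and 60.9 CPM and its control libraries 72.3, 47.0 and 67.6 CPM, which overlap.

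Among the 8 genes of the exit tunnel and its membrane contact 5 were lower (median -0.83). Mrpl45, whose human counterpart ties the ribosome to the inner membrane, had 76.7, 80.4 and 68.2 CPM in CCI and 189, 435 and 233 CPM in control. Every CCI library was under every control library, and the log2 fold change was -1.93 ± 0.30 (edgeR adjusted p = 0.00123), or -1.52 without control replicate 5. Mrpl23, at the tunnel exit, was at -1.17 ± 0.31 and moved to -0.72 without control replicate 5, still past the threshold (adjusted p = 0.000739). It lost its call without CCI replicate 3 (adjusted p = 0.0533). Mrpl39, Mrpl22 and Mrpl17 were lower by -0.97 ± 0.18, -0.89 ± 0.17 and -0.78 ± 0.18. Mrpl24, Mrpl44 and Mrpl47 had log2 fold changes of -0.48 ± 0.23, -0.39 ± 0.18 and -0.26 ± 0.23 and did not pass, though Mrpl24 passed without control replicate 4 (adjusted p = 0.0368).

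The central protuberance, which contacts the small subunit, had 5 of 6 genes lower (median -1.04). Mrpl40 was lower by -1.26 ± 0.28, Mrpl46 by -1.13 ± 0.19 and Mrpl18 by -1.03 ± 0.23. Mrpl58, a peptidyl-tRNA hydrolase (ICT1) built into the ribosome, had 75.2, 70.3 and 67.8 CPM in CCI and 112, 197 and 131 CPM in control (-1.04 ± 0.22, edgeR adjusted p = 0.00456). Mrpl38 was lower by -0.60 ± 0.16, a call that was lost without CCI replicate 3 (adjusted p = 0.0507), and Mrpl48 had -0.29 ± 0.20 and did not pass.

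The stalk, which recruits translation factors, had 1 of 3 genes lower. Mrpl11 had 57.9, 63.9 and 54.3 CPM in CCI and 93.4, 245 and 112 CPM in control (log2 fold change -1.35 ± 0.34, edgeR adjusted p = 0.0099). Without control replicate 5 its log2 fold change was -0.83. Mrpl12, which in bacteria forms the flexible arms of the stalk, had 65.8, 71.4 and 57.2 CPM in CCI and 76.9, 97.9 and 85.4 CPM in control (-0.42 ± 0.16, adjusted p = 0.0562). It passed without control replicate 4 (adjusted p = 0.0384) or 5 (0.034). Mrpl10, the base of the stalk, had 24.0, 23.8 and 27.7 CPM in CCI and 50.4, 22.6 and 52.6 CPM in control. Control replicate 5 lay below the CCI libraries here, the opposite of its place in most members, and the log2 fold change was -0.74 ± 0.30 (adjusted p = 0.0638) with it and -1.05 (adjusted p = 6e-05) without it.

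Other large subunit genes among those with the smallest p-values were Mrpl50, Mrpl35, Mrpl28 and Mrpl37. Mrpl50 had 57.6, 52.3 and 53.9 CPM in CCI and 138, 168 and 149 CPM in control, with little spread in either group (-1.47 ± 0.15, edgeR adjusted p = 0.000245). Mrpl35, which has a bacterial counterpart, had 47.9, 56.1 and 43.9 CPM in CCI and 114, 167 and 131 CPM in control (-1.48 ± 0.19, adjusted p = 0.000533). Mrpl28 and Mrpl37 were lower by -1.15 ± 0.16 and -1.17 ± 0.18. By level per length, Mrpl41, Mrpl27 and Mrpl55 led the large subunit, with means over the 6 libraries of 184, 177 and 134 FPKM. Of these Mrpl55 was lower by -1.25 ± 0.24 in log2 fold change, and Mrpl41, at -0.44 ± 0.21, passed only without control replicate 4 (adjusted p = 0.0497) among the fits that leave out a library.

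Mrpl52 (chr14:54664366-54667213, plus strand, GRCm39), a large subunit protein without a bacterial counterpart, was the member that rose. It had 27.8, 22.7 and 29.1 CPM in CCI libraries, against 11.8, 16.1 and 14.2 CPM in control libraries. The lowest CCI library lay above the highest control library, and the log2 fold change was 0.92 ± 0.19 (edgeR adjusted p = 0.0046), which is 1.90-fold higher in CCI. Without control replicate 5, Mrpl33 also passed as higher (log2 fold change 0.49, adjusted p = 0.041), and with it Mrpl33 had 0.23 ± 0.25. Mrpl53 had 0 counts in each of the 6 libraries, which allows up to 3 counts in a library. Its row overlaps Gm42688 on the same strand, so counting could leave out its reads, and it was not tested.

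**Figure D3:**
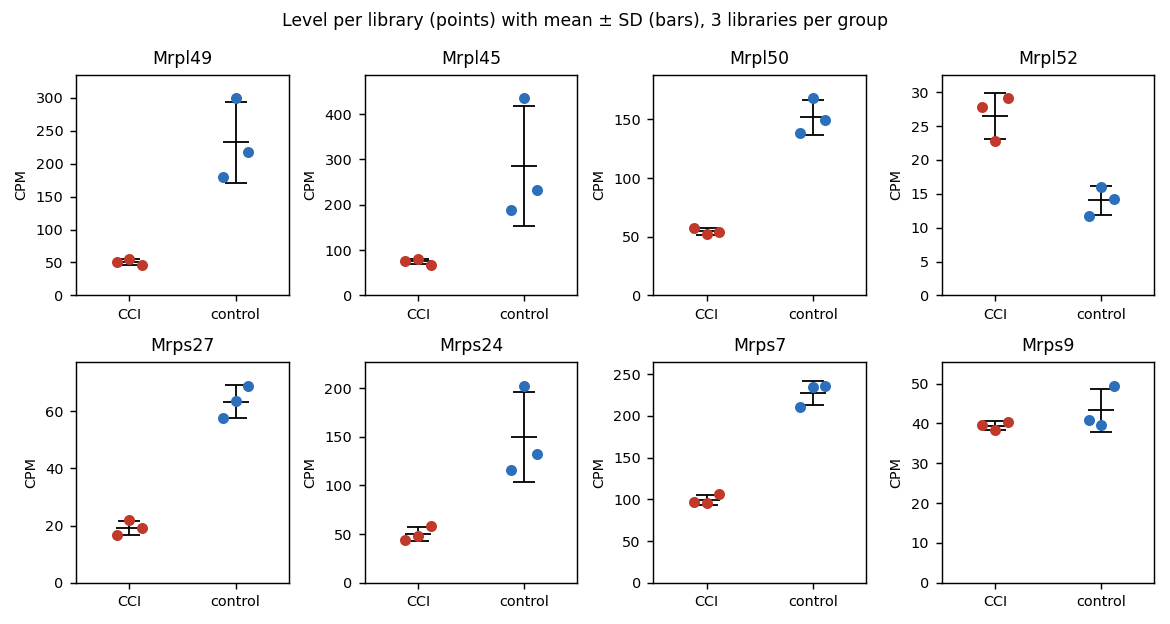
CPM of 8 members in each library (points; CCI red at left, control blue at right) with the mean and SD of 3 libraries (black bars), each axis starting at 0. The groups are apart in every panel but that of Mrps9, where they overlap, and CCI is higher in that of Mrpl52.

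In the small subunit, Mrps27 (chr13:99481294-99552070, plus strand, GRCm39), a pentatricopeptide repeat protein that in human cells binds the small subunit rRNA, had the largest fall. It had 16.6, 21.8 and 19.0 CPM in CCI, against 57.5, 63.6 and 69.0 CPM in control. Control replicate 5 was not set apart here, and the log2 fold change was -1.72 ± 0.17 (edgeR adjusted p = 0.000224), or 3.30-fold lower. Of the 4 genes of decoding and mRNA entry 3 were lower (median -0.81). Mrps24, at the mRNA entry, had 43.6, 48.0 and 58.0 CPM in CCI and 115, 203 and 132 CPM in control (-1.59 ± 0.24, adjusted p = 0.000965), but its row overlaps Urgcp on the same strand, which makes its level uncertain. Mrps12, whose bacterial counterpart lies at the decoding centre, had 61.8, 71.9 and 60.7 CPM in CCI and 116, 106 and 121 CPM in control (-0.82 ± 0.15). Mrps2 was lower by -0.80 ± 0.21, a call lost without CCI replicate 1 (adjusted p = 0.0562) or 2 (adjusted p = 0.0522). Mrps5 had 32.2, 29.7 and 32.7 CPM in CCI and 36.5, 31.8 and 29.7 CPM in control, which overlap (-0.05 ± 0.16).

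Of 4 genes of the small subunit head 3 were lower (median -0.68). Mrps7 had 96.5, 94.9 and 107 CPM in CCI and 211, 235 and 236 CPM in control, more than 2-fold lower with little spread (-1.19 ± 0.15, edgeR adjusted p = 0.000528). Mrps10 was lower by -0.78 ± 0.18. Mrps14, at -0.59 ± 0.21 (adjusted p = 0.0424), lost its call without CCI replicate 1 (adjusted p = 0.114), 2 (0.078) or 3 (0.133) or control replicate 6 (0.0712). Mrps9 had 39.6, 38.3 and 40.4 CPM in CCI and 40.8, 39.7 and 49.5 CPM in control and did not pass (-0.14 ± 0.15). For Mrps9, Mrps5 and Mrpl4 the group means differed by less than the SD of the control libraries, while neighbours in the same structure were lower; the differences between genes were not tested. Mrps23, a small subunit protein without a bacterial counterpart, was lower by -1.07 ± 0.15. Mrps33, Mrps36 and Mrps12 had the highest levels per length of the Mrps genes, with means of 109, 85.7 and 83.6 FPKM, and Mrps33 was lower by -1.26 ± 0.26.

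Mammals have 3 paralogs of bacterial S18. Mrps18a, in the large subunit, had 83.5, 82.3 and 84.5 CPM in CCI and 159, 221 and 179 CPM in control (-1.16 ± 0.17, edgeR adjusted p = 0.000892). Mrps18b, in the small subunit, had 6.11, 5.93 and 6.24 CPM in CCI and 10.6, 18.6 and 11.9 CPM in control (-1.16 ± 0.26, adjusted p = 0.00626). Both fell by about the same factor from different levels. Mrps18c, which takes the site of bacterial S18, had 19.5, 19.0 and 23.9 CPM in CCI and 25.6, 68.7 and 26.7 CPM in control. Its groups did not overlap, control replicate 5 was far above the other controls, and the gene did not pass (-0.95 ± 0.37, adjusted p = 0.0579). Without control replicate 5 the log2 fold change was -0.35 (adjusted p = 0.0761), and it passed only without control replicate 4 (0.0221) or 6 (0.0325) among the fits that leave out a library. Of the genes whose products sit elsewhere than the name says, Mrps30 had 25.4, 24.4 and 21.6 CPM in CCI and 74.9, 45.7 and 80.6 CPM in control (-1.50 ± 0.23, adjusted p = 0.001), and Mrps36 had 70.7, 69.7 and 78.4 CPM in CCI and 128, 218 and 139 CPM in control (-1.15 ± 0.22, adjusted p = 0.003). Mrps30 was lowest among the controls in replicate 5, where Mrps36 was highest.

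Members were also split into genes with and without a bacterial counterpart. In the large subunit 19 of 29 genes with a counterpart were lower (median -0.76), as were 12 of 19 tested genes without one (median -1.05). Among the genes named Mrps it was 9 of 16 (median -0.64) and 10 of 13 (median -1.15). The 13 include Mrps18a, Mrps30 and Mrps36, all lower, whose products do not sit in the small subunit, and the median is the value of Mrps36. Mrps18a and Mrps18b were counted among the 13 although they are paralogs of bacterial S18. These medians are descriptions without a test of their difference. The 25 members whose row overlaps another row of the table, 4 of them on the same strand, included 14 lower of 24 tested (median -0.62), and the 53 without overlap included 36 lower (median -0.83). Among the named lower members Mrpl18, Mrpl27, Mrpl40, Mrpl46, Mrps7 and Mrps18a overlap a gene on the opposite strand, Mrpl46 that of Mrps11, so part of their reads cannot be assigned without a stated strand setting.

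The coefficient of variation of a member's CPM was 7.08% at the median in CCI and 21.6% in control. Between control replicates 4 and 6 alone it was 8.06%, and between pairs of CCI libraries it was 4.91% to 8.29%, so the wider control spread rested on control replicate 5. In control replicate 5, 31 members were over 1.5 times the mean of control replicates 4 and 6, 22 of them in the large and 9 in the small subunit. Without this library 34 large and 19 small subunit genes were lower (68.8% of the members, against 30.5% of all tested genes), and the members' median was -0.66. Without any other single library 41 to 56 members were lower (53.2% to 72.7%, against 18.2% to 24.3% of all tested genes).

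The other genes of mitochondrial translation were described from lists of the same pathway. Of 5 mitoribosomal proteins with other names 4 were lower. Ptcd3, a pentatricopeptide repeat protein at the mRNA entry, had 85.4, 91.9 and 72.0 CPM in CCI and 189, 215 and 224 CPM in control (log2 fold change -1.33 ± 0.17, edgeR adjusted p = 0.000483). Aurkaip1, Dap3 and Chchd1, all small subunit proteins, were lower by -0.91 ± 0.18, -0.88 ± 0.19 and -0.75 ± 0.23, the last at -0.49 without control replicate 5. Gadd45gip1, of the large subunit, was weakly expressed, with 3.91, 3.20 and 4.31 CPM in CCI and 3.48, 3.90 and 3.07 CPM in control, and did not pass.

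Of 26 assembly factors, which modify the rRNAs or guide subunit assembly, 10 were lower, 3 higher and 13 did not pass (median -0.31). Mtg1 and Mpv17l2, both of large subunit assembly, were lower by -1.41 ± 0.16 and -1.19 ± 0.15. Fastkd2, an RNA-binding protein needed for the large subunit, averaged 19.4 ± 1.35 CPM in CCI and 59.6 ± 14.1 CPM in control (SD, n = 3 each; log2 fold change -1.62 ± 0.20 SE, edgeR adjusted p = 0.000443). Mrm3, an rRNA methyltransferase, was lower by -0.90 ± 0.17. Of 15 tested translation factors (17 listed) 7 were lower and 0 higher (median -0.39), among them the elongation factors Gfm1 (-1.13 ± 0.15) and Tufm (-1.14 ± 0.21), the recycling factor Mrrf (-1.03 ± 0.19) and the release factor Mtrf1l (-1.33 ± 0.20). All 3 CCI libraries lay below the controls in 11 of these 15. At an unadjusted p of 0.05 edgeR called 0 of the 15 higher, as did DESeq2 and limma-voom, while limma on log2(FPKM + 1) called 3.

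Of 20 genes that charge mitochondrial tRNAs 9 were lower and 3 higher (median -0.18, or -0.39 without control replicate 5). Yars2, the tyrosyl-tRNA synthetase, had 11.1, 10.5 and 14.9 CPM in CCI and 62.4, 50.5 and 77.0 CPM in control, a larger fall than that of any member (-2.38 ± 0.22, edgeR adjusted p = 0.000207). Gatb and Gatc, of the complex that makes glutaminyl-tRNA, were lower by -1.68 ± 0.15 and -0.95 ± 0.17. Mars2, the methionyl-tRNA synthetase, was higher, with 48.9, 43.4 and 45.3 CPM in CCI and 22.0, 19.5 and 22.8 CPM in control (1.09 ± 0.16). Lars2 and Vars2, named here after their values were seen, had larger log2 fold changes, of 2.37 ± 0.46 and 1.75 ± 0.36. Lars2 had 1520, 1386 and 2673 CPM in CCI and 425, 157 and 500 CPM in control. Whether all reads counted for Lars2 came from its mRNA was not tested. Vars2 was weakly expressed, with 5.11, 3.74 and 5.86 CPM in CCI and 0.98, 2.01 and 1.42 CPM in control. Of the mRNAs that this ribosome translates, 11 of the 13 listed were tested. None was lower at an adjusted or unadjusted p of 0.05 in edgeR (1 in DESeq2, 0 in limma-voom). Those higher were mt-Nd4 (1.42 ± 0.28), mt-Nd2 (1.36 ± 0.47) and mt-Nd3 (1.71 ± 0.57), all for complex I. They made up 27.3% of the list beside 27.0% of all tested genes, and the list median was 0.15. The level of mt-Nd3 was very low, with 1.60, 1.55 and 5.16 CPM in CCI and 0.62, 1.06 and 0.90 CPM in control. In CCI, mt-Co2 and mt-Co3 averaged 11.6 and 16.8 CPM, against 6508 CPM for mt-Co1. How completely each of these mRNAs was counted was not tested. Control replicate 5 had an mt-Nd2 level of 1158 CPM, against 333 and 343 CPM in control replicates 4 and 6. Without control replicate 5, 7 of the 11 were higher, 0 were lower and the list median was 0.66. The log2 fold change of mt-Nd2 was then 2.196. That of mt-Co1 was then 0.539 and passed (edgeR adjusted p = 0.0188), while with control replicate 5 it was 0.0043 and did not pass. Genes of the mitochondrial genome took 1.77 ± 0.12% of counts in CCI and 0.888 ± 0.337% in control (SD, n = 3 each), with 1.28% in control replicate 5 and 0.701% and 0.686% in the other controls. The mitochondrial rRNAs were not analysed here.

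Fold changes in this data set ran with the level of a gene. Across all 14259 tested genes, Spearman's rho of log2 fold change with mean CPM was -0.44, and across the 77 members it was -0.51; genes share libraries and are not independent replicates. The members are well expressed, with a median of mean CPM of 70.6 against 23.0 for all tested genes. In quartiles of mean CPM over all tested genes, chosen after the data were seen, 43 members lay in the highest (from 62.3 CPM), where 35 of them (81.4%) and 53.6% of all tested genes were lower, with medians of -1.05 and -0.66. In the quartile from 23.0 to 62.3 CPM 13 of 27 members (48.1%) and 29.0% of all tested genes were lower, with medians of -0.58 and -0.07. In the quartile from 7.14 to 23.0 CPM there were 7 members, 2 of them lower, against 13.2% of all tested genes, and none lay in the lowest. The members are also short, with a median gene length in the table of 2533 bp against 4531 bp. With length the rho was 0.28 across all tested genes and 0.02 across the members, and with coding GC content it was 0.14 and 0.06.

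**Figure D4:**
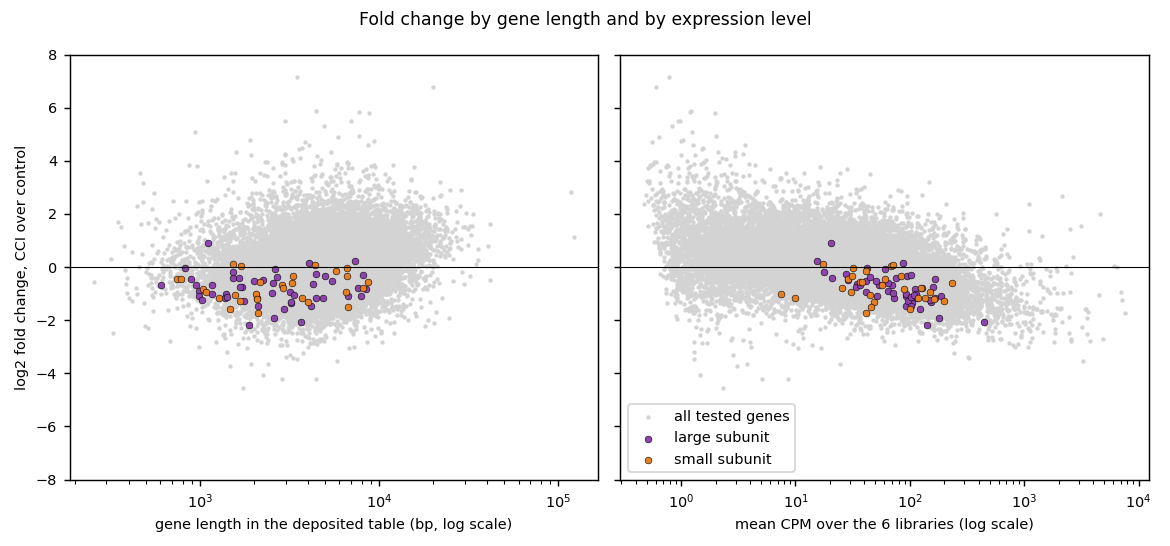
Log2 fold change of CCI over control (y axis) of all 14259 tested genes (grey), large subunit genes (purple) and small subunit genes (orange), against gene length in bp (left, log scale) and mean CPM over the 6 libraries (right, log scale). The grey cloud descends toward high CPM, and the members sit mostly at its right and below 0.

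The count of lower members was smaller in fits with an offset for mean expression and on the FPKM scale. With an offset for each library's trend with length, GC content and mean expression, 12 of 77 members were lower (15.6%) and 8 higher (10.4%), beside 15.2% lower and 22.9% higher of all genes tested, so the share of lower members was close to that of all genes. Their median was then -0.14, against 0.10 for all genes. With offsets for length and GC alone, 44 members were lower (57.1%), against 22.8% of all genes. The deposited FPKM, which carries no TMM factor, placed the log2 fold changes of shared genes 0.51 higher at the median; limma on log2(FPKM + 1) then called 22 members lower (28.6%) and 8 higher (10.4%), beside 9.64% lower and 47.6% higher of all genes. That fit differs from the edgeR fit in scaling, transformation and test at once, and their parts were not separated; with DESeq2 size factors in place of TMM 54 members were lower. On log2(FPKM + 1), which understates the change of low genes, the members' median was -0.20 and that of all genes 0.42. The members' distance from all genes was then -0.61, where it was -0.86 in the edgeR fit. With log2(FPKM + 0.1) the medians were -0.20 and 0.65, and the distance was -0.85, close to that of the edgeR fit. Of the lower members described above, Mrpl18, Mrpl22, Mrpl27, Mrpl39, Mrps14, Mrps33 and Mrps36 had a log2 fold change above 0 with the offset that includes mean expression, as had Mrps14 on both FPKM scales. Mrpl3, Mrpl35, Mrpl49, Mrps18b, Mrps24 and Mrps27 were lower in each of the 16 alternative fits, and Mrpl52 was higher in each, with log2 fold changes from 0.77 to 1.52 and adjusted p up to 0.0245. The share of all tested genes that kept a call in each fit was not counted.

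**Figure D5:**
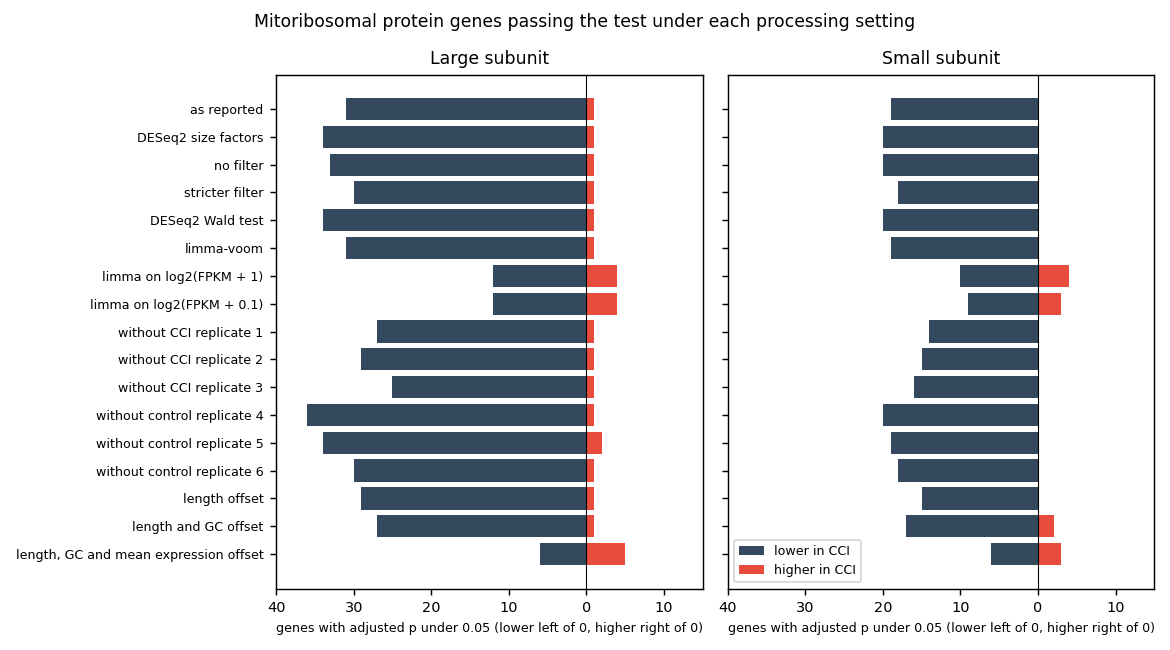
Number of large (left) and small (right) subunit genes that passed an adjusted p of 0.05, lower in CCI (dark bars, left of 0) or higher (red bars, right of 0), in the fit as reported and in each of 16 alternatives. The bars of lower genes shrink to 12 and 10 with log2(FPKM + 1) and to 6 and 6 with the offset that includes mean expression.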

How the data were processed

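Bulk RNA from mouse paraventricular thalamus was sequenced in 6 libraries, 3 CCI and 3 control. Per the submitters' processing notes, the tools were HTSeq 0.9.1, HISAT2 2.1.0, StringTie 2.2.1, fastp 0.22.0 and DESeq 1.38.3, with GRCm39; the strand setting is not given in the sources used here. Per the file headers, the authors deposited a read count and an FPKM per gene and library. The FPKM was checked to equal the count per gene length and column total (largest relative difference 1.3e-07).

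The test of the deposited counts was that of edgeR 4.0.16, run in R 4.3.3 (TMM, filterByExpr, quasi-likelihood F-test, Benjamini-Hochberg over 14259 genes, threshold 0.05); the code was tested on simulated data. Standard errors were obtained by dividing each log2 fold change by the square root of its F. Replicate numbers, 1 to 3 and 4 to 6, come from the labels. Alternatives used DESeq2 1.42.0 (size factors or Wald test), limma 3.58.1 (limma-voom, and log2(FPKM + 1) or log2(FPKM + 0.1)), no filter, a filter of at least 10 counts in each library, each library left out (for sums, spread and pathway lists only control replicate 5, chosen after seeing the data), and offsets for length, GC content and mean expression (natural splines, 5 degrees of freedom). Coding length and GC came from GENCODE M21 by Ensembl identifier (21805 genes), and promoters from RefSeq on GRCm38.p6, whose coordinates are not those of the table.

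The members, the pathway and marker lists and the naming rule were chosen with earlier results of these data known. Named were, in each subunit, the 6 passing members of smallest unadjusted p in each direction, the 3 of highest mean FPKM and every member of the structural groups. In the pathway lists these were up to 4 passing genes of smallest unadjusted p and every mitoribosomal protein with another name. Some further genes were named after their values were seen.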

Additional observations from a re-analysis of the deposited data

How the results depend on the processing

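Across 16 alternatives the subunits kept a median log2 fold change below 0. Among 46 named members 644 values stayed on their side of the threshold (31 of them with another sign, past it in neither fit). A call was lost in 64 and gained in 16. Another 12 reversed, which here means that the sign changed and that either or both fits gave a call. With limma on log2(FPKM + 1), 12 large subunit genes were lower and 4 higher (median -0.18), 10 small subunit genes lower and 4 higher (median -0.20), and 1374 of all genes lower and 6785 higher. With log2(FPKM + 0.1) these were 12, 4 and -0.19; 9, 3 and -0.20; and 1345 and 6632, with shared genes 0.60 higher at the median. With the offset for length, GC content and mean expression they were 6, 5 and -0.13 for the large and 6, 3 and -0.14 for the small subunit, and 2160 of all genes were lower. The small subunit median was -0.59 with the length offset and -0.54 with the length and GC offset, where 2 small subunit genes were higher. Leaving out 1 library gave 25 to 36 large and 14 to 20 small subunit genes lower, and 1 to 2 large subunit genes higher, the second without control replicate 5.

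The reversed values were, with the offset that includes mean expression, 0.080 for Mrpl18, 0.074 for Mrpl22, 0.019 for Mrpl27, 0.088 for Mrpl39, 0.53 for Mrpl4, 0.83 for Mrpl41, 0.65 for Mrps14, 0.16 for Mrps33 and 0.12 for Mrps36. With log2(FPKM + 1) they were 0.033 for Mrps14 and 0.45 for Mrps5, and with log2(FPKM + 0.1) 0.034 for Mrps14. Mrpl18, Mrpl22, Mrpl27, Mrpl39, Mrps33 and Mrps36 were called higher in 0 alternatives, so their reversals were lost calls. Mrpl4, Mrpl41 and Mrps5 had no call in the fit as reported. The cause was not tested. No paired analysis was possible because the groups share no replicate number. Keeping pseudogene rows gave no value, since the name pattern matched 0 of them.

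The groups hold 3 libraries each, and standard errors were highest for Mrps18c, Mrpl42 and Mrpl11 (0.37, 0.35 and 0.34) among the 77 tested members. The labels give no dissection or preparation batch, so a batch and the group cannot be told apart.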
